A study of Sus scrofa with 21 samples.

Results

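The genes described here are 10 markers of resident immune cells of the testis, of which 7 mark macrophages (CD163, CSF1R, MRC1, AIF1, CD68, C1QA and C1QB) and 3 mark mast cells (MS4A2, CPA3 and FCER1A). MS4A2 was chosen by its high level in Landrace boars with a high change of sperm hyperactivity over storage, and the other genes were listed with it as markers of the same cells. They were found by symbol among the 25880 Ensembl pig genes counted in each library, and 9 of the 10 had a row. No identifier was matched to CPA3, the mast cell carboxypeptidase, so it has no value here. The sequences of the genes were not analysed here.

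Macrophages are the most common immune cells of the mammalian testis, where they lie in the interstitium beside the Leydig cells and around the tubule wall, take up debris and iron-bearing proteins, and help to keep the tissue tolerant to germ cell antigens. They depend on signals through the CSF1 receptor. Mast cells are fewer, carry the high-affinity receptor for immunoglobulin E and granules with histamine and proteases, and depend on KIT and its ligand.

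Testis tissue was taken at slaughter from boars kept for artificial insemination, and bulk RNA-seq was analysed from 13 Landrace and 8 Duroc boars with 1 library each. Hyperactivity is the vigorous, non-linear swimming that sperm show before fertilization, measured in the semen of the same boars at day 0 and after 96 h of storage at 18 °C. Contrast (i) held 4 Landrace boars with high (L5, L6, L7 and L8) and 4 with low hyperactivity at day 0 (L1, L2, L3 and L4). Contrast (iii) held 3 Landrace boars with a high (L7, L13 and L15) and 4 with a low change over storage (L2, L9, L10 and L12). L2 and L7 were in both contrasts, which are therefore not independent. The Duroc boars were labelled high (D1, D2, D3, D4 and D5) or low at day 0 (D6, D7 and D9). The published list of the Duroc boars, matched by name, gives the opposite group for every boar but D5, so the Duroc groups are called by their labels and no direction is drawn from them. The labels name no treatment, and the age of each boar is not given in the sources used here.

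Between 41358671 and 125576407 reads per library were counted in genes. Levels are given as CPM, the counts of a gene scaled to the size of its library and by TMM over the 21 libraries, which is a level per library and not per gene length, so levels are compared between boars and not between genes. Because whole testis was sequenced, fewer cells of a type and less RNA per cell cannot be told apart. The library of L13 stood apart, with a summed level of 8 Sertoli cell markers of 496 CPM against 184 to 294 CPM in the other 20 boars and the lowest sum of 8 spermatid markers (6270 CPM, others 7760 to 15100 CPM). The library of L8 had the lowest summed levels of Leydig cell (473 CPM), peritubular (21 CPM) and endothelial (15.8 CPM) markers. For the genes described here, values without L13 in contrast (iii) and without L8 in contrast (i) stand beside the results.

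The label of the gene set was checked against the other markers of each cell. Of 29 macrophage markers with a row, the 7 described here and 22 others, 9 stayed under 1 CPM in every boar, and these included defining genes of the lineage: CSF1R, C1QA and C1QB, the lipopolysaccharide co-receptor CD14 (at most 0.198 CPM), the signalling adaptor TYROBP (at most 0.191 CPM) and the lipid receptor TREM2 (at most 0.172 CPM). SPI1, the myeloid transcription factor, was between 0.673 and 5.47 CPM. A further 12 of the 29 were at 1 CPM or more in every boar, among them MRC1, the phosphatidylserine receptor TIMD4 (79.2 to 202 CPM) and the protease CTSS (12.9 to 35.0 CPM). Genes near 0 and genes well counted thus stood in the same list, and macrophage is used here only as the name of the list. Which cells carried MRC1 was not tested.

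Mast cell markers were as uneven. FCER1G, the signalling chain shared by the immunoglobulin E receptor and other Fc receptors, was at 0.338 to 3.45 CPM, and HDC, the enzyme that makes histamine, at 0.739 to 4.04 CPM. The leukotriene enzyme LTC4S had at most 2 counts in any library and the prostaglandin enzyme HPGDS at most 21 counts. No row was matched to the tryptases TPSAB1 and TPSB2 or the chymase CMA1. The plot of marker levels shows which genes of each cell type were near 0 in all boars and which were not.

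**Figure D1:**
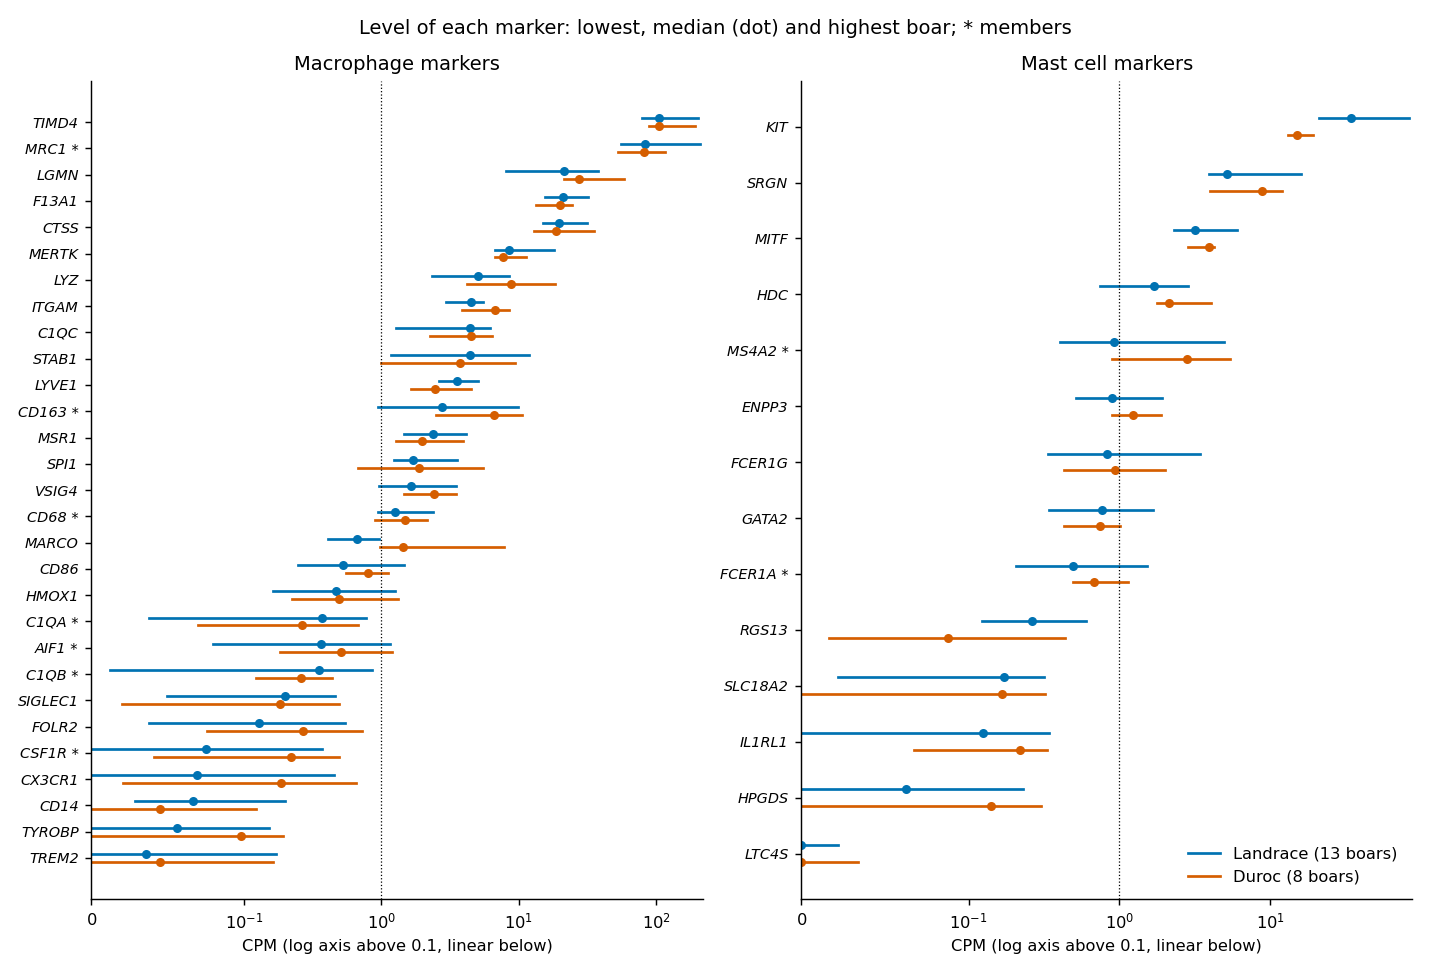
Level of 29 macrophage markers (left) and 14 mast cell markers (right) in CPM, with a line from the lowest to the highest boar and a dot at the median, for 13 Landrace and 8 Duroc boars; asterisks mark the genes described here and the dotted line is 1 CPM. CSF1R, CD14, TYROBP and TREM2 lie under 1 CPM in all boars, and KIT lies higher in every Landrace boar (21 to 83.9 CPM) than in any Duroc boar (13.1 to 19.3 CPM).

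CD163, the scavenger receptor for haemoglobin bound to haptoglobin (ENSSSCG00000033146, chromosome 5, 63300200 to 63334497 in RefSeq's annotation of Sscrofa11.1), ranged from 0.940 CPM in L8 to 10.6 CPM in D3, with a median of 3.75 CPM over the 21 boars. The boars L6 (9.87 CPM), L13 (9.34 CPM), D3 and D7 (10.1 CPM) were high, and no other Landrace boar was above 5.49 CPM. MRC1, the mannose receptor of resident macrophages (ENSSSCG00000011038, chromosome 10, 44107926 to 44226734), ranged from 52.4 to 207 CPM with a median of 82.6 CPM. L13 alone was at 207 CPM, and the next boar, L6, was at 122 CPM. CD68, a lysosomal glycoprotein of phagocytes (ENSSSCG00000017956, chromosome 12, 52874754 to 52877256), had the smallest ratio of highest to lowest boar of the 9 genes, from 0.891 CPM in D2 to 2.36 CPM in L13.

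The other macrophage genes were counted with few reads. AIF1, the calcium-binding protein IBA1 (ENSSSCG00000032341, chromosome 7, 23711752 to 23731191), had 4 to 115 counts per library and 0.0794 to 1.20 CPM. CSF1R, the receptor for the macrophage growth factors CSF1 and IL34 (ENSSSCG00000014441, chromosome 2, 151102138 to 151130311), had 0 to 33 counts and at most 0.490 CPM. In 5 boars it had 3 or fewer counts. C1QA (ENSSSCG00000003524, chromosome 6, 80586259 to 80589213) and C1QB (ENSSSCG00000033512, chromosome 6, 80601680 to 80606076) encode chains of complement C1q and are neighbours in the genome. C1QA had 3 to 66 counts and 0.0376 to 0.779 CPM, and C1QB had 1 to 72 counts and 0.0125 to 0.850 CPM. L8 was lowest and L13 highest for each of these C1q genes. In such genes a difference of a few reads is a large fold change, and the counts are given beside the folds for that reason.

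MS4A2, the beta chain of the high-affinity immunoglobulin E receptor (ENSSSCG00000034506, chromosome 2, 11400415 to 11420314), ranged from 0.401 CPM in L8 to 5.40 CPM in D3, with 32 to 664 counts. Among the Landrace boars, 4 were above 1.8 CPM (L13 at 4.94, L6 at 3.95, L15 at 2.80 and L7 at 1.85 CPM), and the other 9 were between 0.401 and 1.19 CPM. Among the Duroc boars, D6 was at 0.897 CPM and the other 7 at 2.48 to 5.40 CPM. FCER1A, the chain of the same receptor that binds immunoglobulin E (ENSSSCG00000006413, chromosome 4, 91118867 to 91125448), ranged from 0.207 CPM in L10 to 1.52 CPM in L13, with 11 to 129 counts.

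**Figure D2:**
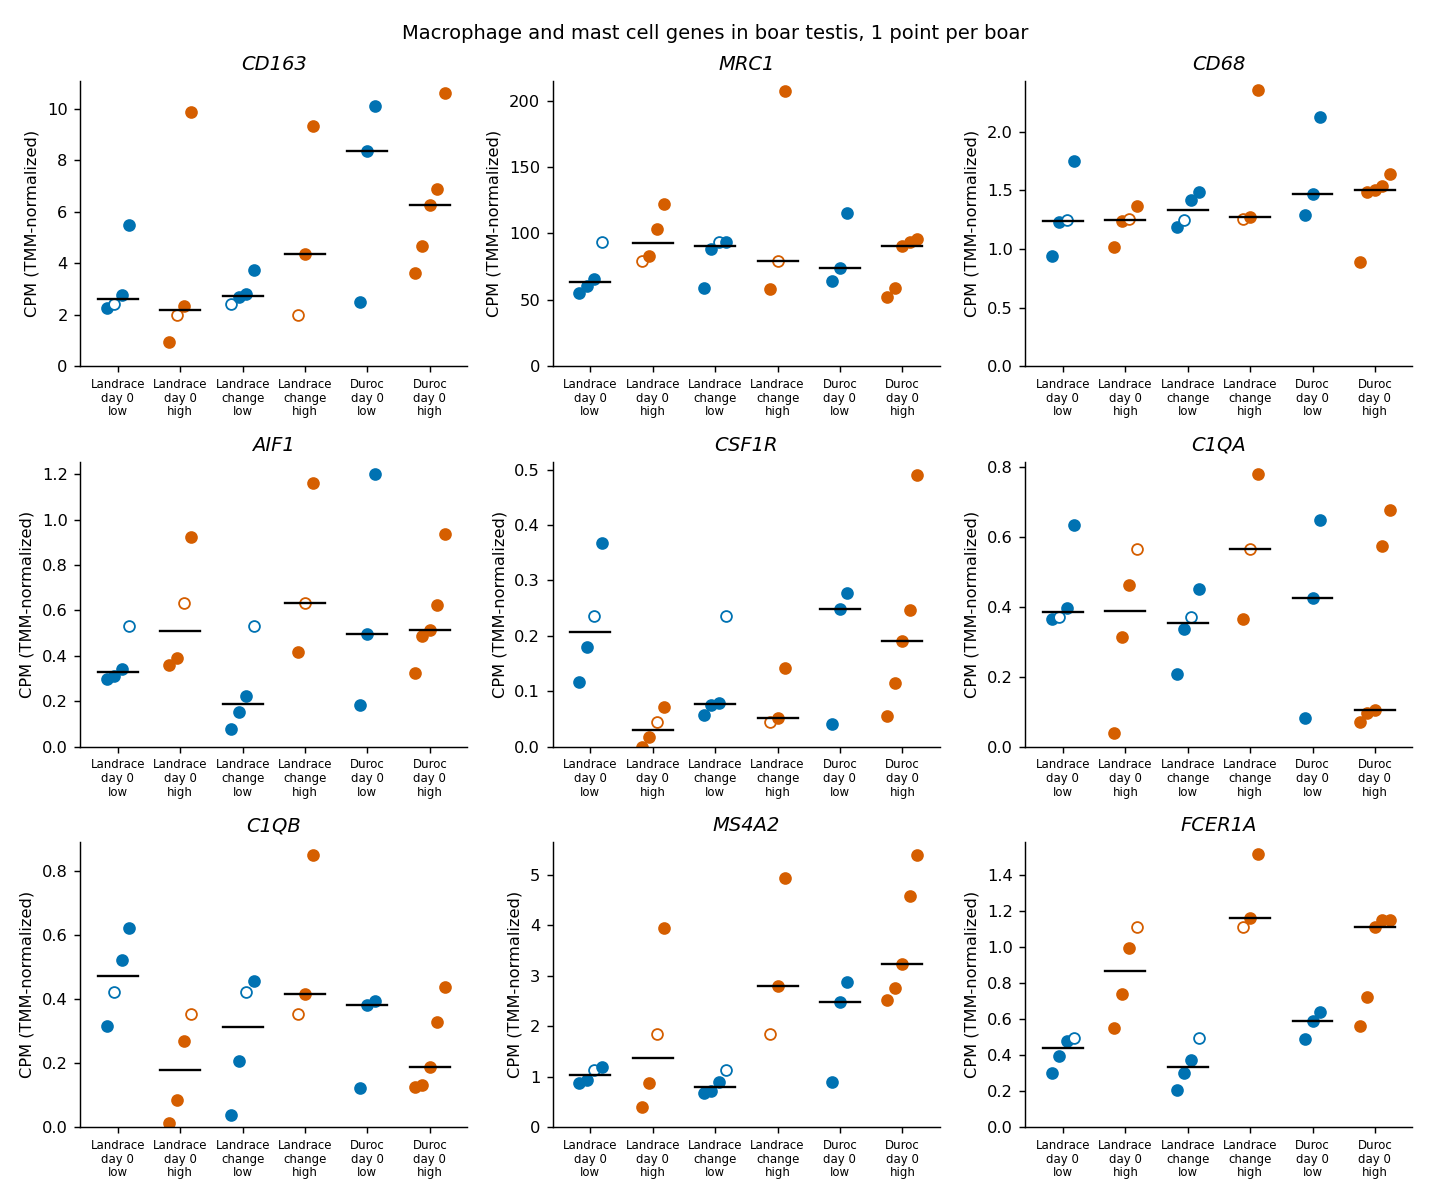
TMM-normalized CPM of the 9 genes with a row, with 1 point per boar, low groups in blue, high groups in orange and a black line at the group median; L2 and L7, which belong to both Landrace contrasts, are open circles. MS4A2 lies at 1.85 to 4.94 CPM in boars with a high change over storage and at 0.679 to 1.14 CPM in boars with a low change, and CSF1R lies at 0 to 0.0711 CPM in boars with high hyperactivity at day 0 and at 0.116 to 0.367 CPM in those with low.

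Contrast (i) asked which genes differ in testis with hyperactivity at day 0. Of the 9 genes, 4 passed the filter of 1 CPM in at least 4 libraries (CD163, MRC1, CD68 and MS4A2), and 0 of these 4 were called at an adjusted p under 0.05 (edgeR quasi-likelihood test), against 20.7% of all 12979 genes tested. Of the 2682 genes called in all, 626 were higher in the high boars (23.3%) and the rest lower, so a lower call was the usual direction in this contrast. MRC1 was at 79.0 (L7), 82.6 (L5), 103 (L8) and 122 CPM (L6) in the high boars and at 55.1 (L3), 60.7 (L4), 66.0 (L1) and 93.6 CPM (L2) in the low boars. The groups overlapped only through L2. The log2 fold change of high over low was 0.42 (SE 0.19, unadjusted p = 0.0446, adjusted p = 0.112). MRC1 was the only 1 of the 4 with an unadjusted p under 0.05, but 5415 of all 12979 genes had one. Without L8 the log2 fold change was 0.41 (adjusted p = 0.183). Leaving out L2 and L7 together gave 0.63 with an adjusted p of 0.0457, which passed the threshold. In that fit 14.5% of 12542 genes were called.

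MS4A2 was at 0.401 (L8), 0.876 (L5), 1.85 (L7) and 3.95 CPM (L6) in the high boars of contrast (i) and at 0.865 to 1.19 CPM in the 4 low boars. The high boars lay on both sides of the low ones. The log2 fold change was 0.70 (SE 0.55, adjusted p = 0.336), and in the fit without a filter it went from 0.77 to 0.01 when L6 was left out and to 1.07 when L8 was. CD163 was also high in L6 alone, with 0.940 (L8), 2 (L7), 2.35 (L5) and 9.87 CPM (L6) in the high boars and 2.25 to 5.49 CPM in the low boars (log2 fold change 0.14, SE 0.60, adjusted p = 0.870). Without L6 its log2 fold change was -0.95 (adjusted p = 0.133), and without L8 it was 0.49 (adjusted p = 0.533). CD68 was at 1.02 to 1.37 CPM in the high and 0.937 to 1.75 CPM in the low boars (log2 fold change -0.16, SE 0.29, adjusted p = 0.688). Without L8 its log2 fold change was -0.07 (adjusted p = 0.883).

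The 5 genes under the filter were fitted with all genes that had a count, where 13.5% of 21183 genes were called. Of the 9 genes, 1 was called, CSF1R. Its counts were 0 (L8), 1 (L5), 4 (L7) and 5 (L6) in the high boars and 7 (L4), 10 (L1), 19 (L2) and 33 (L3) in the low boars. The groups did not overlap, at 0 to 0.0711 against 0.116 to 0.367 CPM, and the log2 fold change was -2.71 (SE 0.80, adjusted p = 0.0377). A two-sided exact permutation test over the 70 assignments of the 8 boars gave p = 0.0286, the smallest it can give. The call was kept when L4, L6 or L7 was left out and lost when L1, L2, L3, L5 or L8 was, with adjusted p between 0.0436 and 0.133, and it was lost without L2 and L7 (0.0692). For L8, a count of 0 allows up to 0.0376 CPM (3 counts), and without L8 the log2 fold change was -2.32 (SE 0.73).

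FCER1A was at 0.550 (L5), 0.739 (L8), 0.996 (L6) and 1.11 CPM (L7) in the high boars and at 0.300 (L3), 0.396 (L1), 0.481 (L4) and 0.496 CPM (L2) in the low boars of contrast (i). The groups did not overlap, with L5 the nearest of the high boars. The log2 fold change was 1.02 (SE 0.39, adjusted p = 0.0817 without a filter), and the exact permutation test gave p = 0.0286. Without L8 the log2 fold change was 1.06 (SE 0.40). C1QB was at 0.0125 (L8), 0.0859 (L5), 0.270 (L6) and 0.354 CPM (L7) in the high boars and at 0.315 (L4), 0.421 (L2), 0.523 (L1) and 0.623 CPM (L3) in the low boars, which overlapped only between L7 and L4. Its log2 fold change was -1.36 (SE 0.64, adjusted p = 0.148), and the exact permutation p was 0.0571. Without L8 it was -0.99 (SE 0.52, adjusted p = 0.25). C1QA (log2 fold change -0.37) and AIF1 (0.62) overlapped between the groups and had adjusted p of 0.667 and 0.334, and without L8 they were at -0.01 and 0.75. CSF1R and FCER1A were thus 2 of 9 genes whose groups did not overlap, while 22.4% of all 21183 genes with a count did not overlap in one direction or the other.

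The number of calls in contrast (i) depended on single boars: under the filter it fell from 2682 to 1 when L3 or L6 was left out. Without a filter it fell from 2858 to 731 without L3 and to 1351 without L6. Other cell markers moved with this contrast, in which 20.7% of all genes were called, mostly lower. Of 5 peritubular markers tested, 3 were lower in the high boars, the smooth muscle genes MYOCD, DES and MYH11, with log2 fold changes of -2.14, -1.50 and -1.17 (adjusted p = 0.0208, 0.0255 and 0.0392), and the summed level of the 7 markers was 21 to 65.3 CPM in the high and 53.1 to 118 CPM in the low boars. Of 8 spermatid markers, 4 were lower (ACR, TSSK6, TNP2 and PRM1, log2 fold changes -1.41 to -0.70), although the summed level of all 8 was 11300 to 15100 CPM in the high and 8920 to 13500 CPM in the low boars. Over 16 alternatives the adjusted p of MYOCD, ACR and TSSK6 was at most 0.0532, so that their lost calls lay just over the threshold. The part of these cells in the differences of CSF1R, C1QB and FCER1A was not tested.

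Contrast (iii) compared boars by their change of hyperactivity over storage. MS4A2 was chosen by this contrast, so the values in it are a description and no test was made. MS4A2 was at 1.85 (L7), 2.80 (L15) and 4.94 CPM (L13) in the boars with a high change and at 0.679 (L10), 0.712 (L9), 0.893 (L12) and 1.14 CPM (L2) in those with a low change. The means were 3.20 ± 1.59 (SD, n = 3) and 0.856 ± 0.211 CPM (SD, n = 4), with a log2 fold change of 1.88 (SE 0.37). Without L13 the log2 fold change was 1.42.

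FCER1A had the same order of groups in contrast (iii), at 1.11 (L7), 1.16 (L15) and 1.52 CPM (L13) in the boars with a high change and at 0.207 (L10), 0.298 (L12), 0.375 (L9) and 0.496 CPM (L2) in the others. Its log2 fold change was 1.85 (SE 0.39). The groups did not overlap for MS4A2, which was chosen for its level in these boars, or for FCER1A. All high boars were above all low boars for 5.87% of 21019 genes, and nothing is read from the members' count here. AIF1 was at 0.417 (L15), 0.631 (L7) and 1.16 CPM (L13) against 0.0794 (L12), 0.151 (L10), 0.225 (L9) and 0.533 CPM (L2), with a log2 fold change of 1.52 (SE 0.58). The groups of AIF1 overlapped by 1 pair of boars, L15 and L2.

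The other macrophage genes were less apart in contrast (iii). CD163 was at 2 (L7), 4.36 (L15) and 9.34 CPM (L13) in the boars with a high change and at 2.43 to 3.75 CPM in the others (log2 fold change 0.83, SE 0.43). MRC1 (0.45), CD68 (0.28), C1QA (0.73) and C1QB (0.92) had positive and CSF1R (-0.52) a negative log2 fold change, all with overlapping groups. Without L13, and with no filter, the log2 fold change was -0.27 for MRC1 (SE 0.19) and -0.07 for CD68 (SE 0.33), so that both changed sign. It was 0.13 for CD163, 0.46 for C1QA, 0.45 for C1QB and -1.24 for CSF1R, while FCER1A was at 1.71 and AIF1 at 1.05. L13 was the highest of all 7 boars for each of these genes but CSF1R, where L2 was highest. The other lists in these boars, also with no test, went in different directions. Spermatid markers summed to 6270 to 12000 CPM in the boars with a high and 10600 to 14400 CPM in those with a low change, and T and NK cell markers to 52.7 to 84.4 CPM against 91.4 to 119 CPM. The T and NK sum was mostly the gene CD247 (45.2 to 112 CPM in Landrace), while 7 of the 11 genes in it stayed under 1 CPM in every boar. The mast cell ligands and signalling genes summed to 58.9 to 131 CPM against 42.2 to 55.8 CPM, but the other mast cell markers overlapped, at 48.1 to 69.7 CPM against 34.5 to 99.7 CPM, with KIT at 33.1 to 38 CPM against 24.7 to 83.9 CPM. Their part in the values of MS4A2 and FCER1A was not tested.

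In the Duroc boars, which the rule did not use, 0 of 4 tested genes were called between boars labelled high and low, and 0% of 13043 genes were (158 had an unadjusted p under 0.05, and the likelihood ratio test and DESeq2 also called 0). Without D9, 2 genes were called, neither of them among the 9. MS4A2 was at 2.52 (D4), 2.76 (D2), 3.24 (D5), 4.58 (D1) and 5.40 CPM (D3) in the boars labelled high and at 0.897 (D6), 2.48 (D9) and 2.88 CPM (D7) in those labelled low. Of the 15 pairs of a high and a low boar, the boar labelled high was above in 13. The log2 fold change was 0.84 (SE 0.43, adjusted p = 1), and the exact permutation test gave p = 0.0893, where 0.0179 is the smallest it can give over 56 assignments. The log2 fold change was 0.47 without D6 and 1.12 without D7.

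FCER1A, fitted without a filter, where 0% of 21175 genes were called, was at 0.561 (D3), 0.721 (D4), 1.11 (D2), 1.15 (D1) and 1.15 CPM (D5) in the boars labelled high and at 0.489 (D6), 0.591 (D9) and 0.638 CPM (D7) in those labelled low. Only D3 lay among the boars labelled low. Its log2 fold change was 0.70 (SE 0.44, adjusted p = 1, exact permutation p = 0.0714). CD163 was at 3.64 to 10.6 CPM against 2.49 to 10.1 CPM (log2 fold change -0.11, SE 0.45, adjusted p = 1), and MRC1, CD68, AIF1, C1QA, C1QB and CSF1R had log2 fold changes of -0.38 to 0.17 with overlapping groups. C1QA fell into separate sets within the Duroc boars, at 0.0696 to 0.106 CPM in D2, D3, D4 and D6 and at 0.426 to 0.678 CPM in D1, D5, D7 and D9, and each set held boars of both labels. Since the direction of the Duroc labels is in doubt, the Duroc differences are not compared with those of contrast (i).

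The breeds were compared over all 21 boars. Of the 4 tested genes 0 were called, against 2.88% of 13126 genes, and of the 9 genes 0 were called without a filter, against 2.5% of 22154 genes. MS4A2 had a median of 2.82 CPM in Duroc (0.897 to 5.40 CPM, n = 8) and 0.928 CPM in Landrace (0.401 to 4.94 CPM, n = 13), and 7 of 8 Duroc boars were above the Landrace median. The log2 fold change of Duroc over Landrace was 0.95 (SE 0.40, unadjusted p = 0.0264, adjusted p = 0.293), while an exact permutation test of this gene alone over 203490 assignments gave p = 0.0164. The log2 fold change was 1.12 in the boars labelled high at day 0 and 1.03 in those labelled low (adjusted p = 0.506 and 0.231), and 1.20 without L13 (adjusted p = 0.0689). Since the direction of the Duroc labels is in doubt, boars of the same label may differ in hyperactivity between the breeds. MS4A2 was also chosen by its values in some of these Landrace boars.

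CD163 had a median of 6.57 CPM in Duroc (2.49 to 10.6 CPM) and 2.78 CPM in Landrace (0.940 to 9.87 CPM). The ranges overlapped widely, and the log2 fold change was 0.77 (SE 0.35, unadjusted p = 0.0396, adjusted p = 0.361, exact permutation p = 0.0338 for this gene alone). The other 7 genes had log2 fold changes of -0.43 (C1QB) to 0.87 (CSF1R), with adjusted p of 0.534 or more and exact permutation p of 0.0862 or more. The study's methods describe the same collection, RNA extraction and sequencing for all boars, and no batch within them is named in the sources used here.

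**Figure D3:**
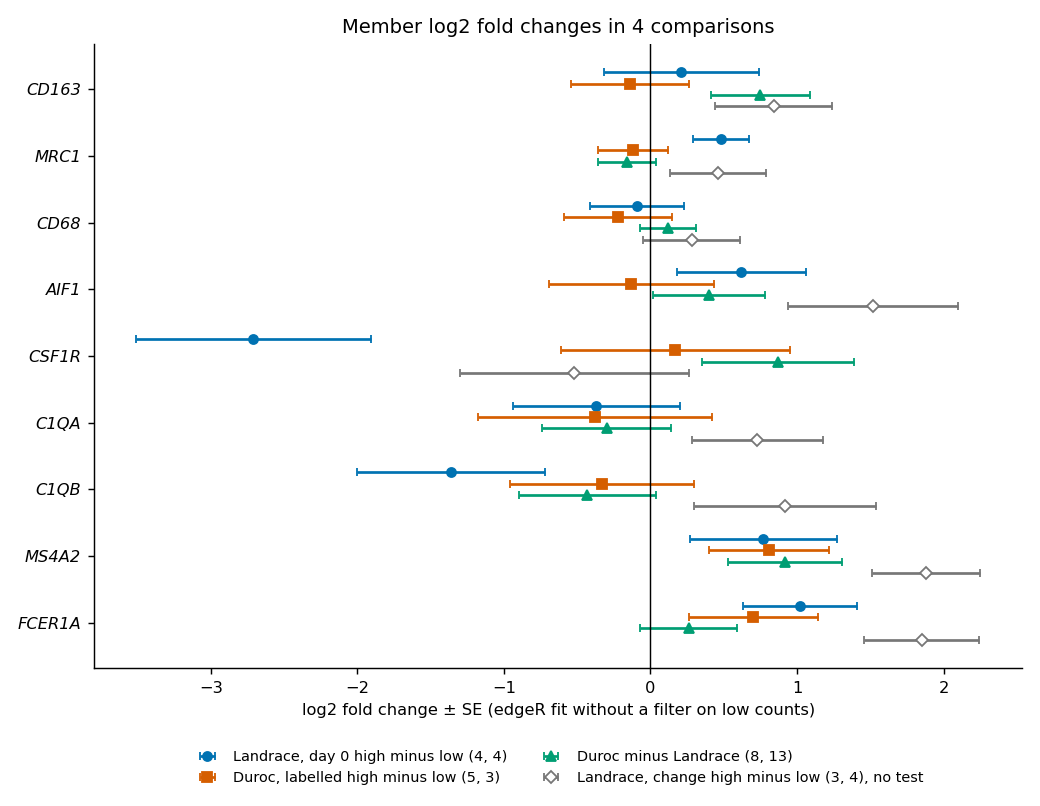
Log2 fold change with its SE of the 9 genes in 4 comparisons, from the edgeR fit without a filter on low counts; open diamonds mark contrast (iii), which chose MS4A2 and was not tested. CSF1R lies at -2.71 and FCER1A at 1.02 in contrast (i), and the signs in Duroc follow labels whose direction is in doubt.

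The levels of the 9 genes were compared with each other across boars, by Pearson's r and Spearman's rho of log2 CPM over 36 pairs with permutation tests and adjustment over the 36. MS4A2 was chosen by its values in the Landrace boars of contrast (iii), which are among these boars. The p-values of its pairs therefore reuse those values and are not independent of the choice. Over 21 boars 33 of 36 pairs had a positive r, and 11 passed by r and 13 by rho. Within the 13 Landrace boars 7 passed by r and 1 by rho, and within the 8 Duroc boars 1 by each. All genes share the depth and composition of a library, and L13, the highest of the 13 Landrace boars for 7 of the 9 genes, took part: without L13, 0 pairs passed in Landrace and 7 over the other 20 boars, by r.

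The pair with the highest r over 21 boars was CD163 with MS4A2, a macrophage with a mast cell gene. Its r was 0.85 (permutation p = 1e-05, the smallest that 100000 resamples can give, adjusted p = 0.00036) and its rho 0.82 (permutation p = 3e-05, adjusted p = 0.00108). Without L8 and D3, the boars farthest from the median of CD163, r was 0.79, and without L13 it was 0.84. Within Landrace r was 0.82 (permutation p = 0.00063, adjusted p = 0.0113) and rho 0.63 (adjusted p = 0.132), and r was 0.58 without L6 and L13. Within Duroc r was 0.77 (exact permutation p = 0.0198, adjusted p = 0.142), and it was 0.33 without D4 and D6, so it rested on those boars.

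AIF1 was correlated with the mast cell genes as well. With MS4A2 its r was 0.73 over 21 boars (permutation p = 0.00023, adjusted p = 0.00276, rho 0.76), 0.71 in Landrace and 0.75 in Duroc, and it was 0.77 over 21 boars without L12 and D7. With FCER1A its r was 0.83 in Landrace (permutation p = 0.00027, adjusted p = 0.00972, rho 0.90) and 0.14 in Duroc (exact permutation p = 0.751), where D3 and D7 had much AIF1 and little FCER1A. The difference between the breeds was not tested. The mast cell pair MS4A2 and FCER1A, chains of 1 receptor, had an r of 0.69 over 21 boars (permutation p = 0.00081, adjusted p = 0.00552, rho 0.70), 0.72 in Landrace and 0.44 in Duroc, and an r of 0.87 without L8 and D3.

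Among macrophage genes, C1QA and C1QB had an r of 0.75 over 21 boars (permutation p = 0.00015, adjusted p = 0.0027, rho 0.64) and of 0.63 without L8 and D2, and CSF1R and C1QB one of 0.66 (permutation p = 0.00092, adjusted p = 0.00552, rho 0.63) and 0.53 without L8 and D5. In Landrace r was 0.80 and 0.73 for these pairs. In Duroc no r is given for C1QA, since its values fell into separate sets of 4 boars each; its pairs were in the adjustment over 36 and none passed. CD163 and AIF1 were the pair that passed by r in Duroc, with an r of 0.92 (exact permutation p = 0.00102, adjusted p = 0.0366, rho 0.88) and of 0.75 without D4 and D6, and the same pair had an r of 0.36 in Landrace. By rho the Duroc pair that passed was CSF1R and C1QB (rho 0.98, exact permutation p = 0.000397, adjusted p = 0.0143), whose r was 0.87 there (adjusted p = 0.0634) and 0.76 without D2 and D6. MRC1 passed with AIF1 over 21 boars (r = 0.55, permutation p = 0.00977, adjusted p = 0.0352, rho 0.50), but r was 0.45 without L13 (adjusted p = 0.123). With the other macrophage genes its r was 0.25 for CD163, 0.09 for CD68, 0.03 for C1QA, -0.06 for C1QB and -0.20 for CSF1R, with adjusted permutation p of 0.400 or more. Without L13 these were 0.08, -0.38, -0.20, -0.39 and -0.31 (adjusted permutation p of 0.183 or more), so the sign turned for CD68 and C1QA.

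**Figure D4:**
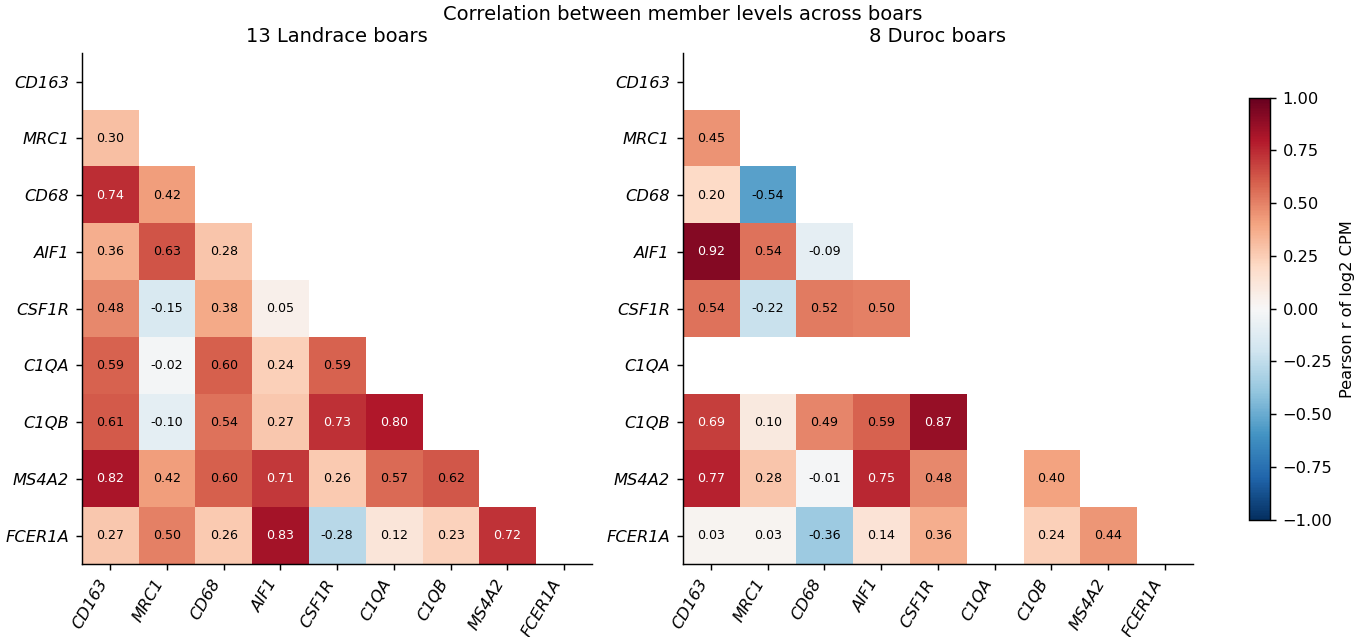
Pearson's r of log2 CPM for each pair of the 9 genes, in 13 Landrace boars (left) and 8 Duroc boars (right), on a colour scale from -1 to 1. CD163 with MS4A2 is at 0.82 and 0.77, and AIF1 with FCER1A at 0.83 and 0.14. The Duroc cells of C1QA are left blank because its values fell into separate sets of 4 boars.

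**Figure D5:**
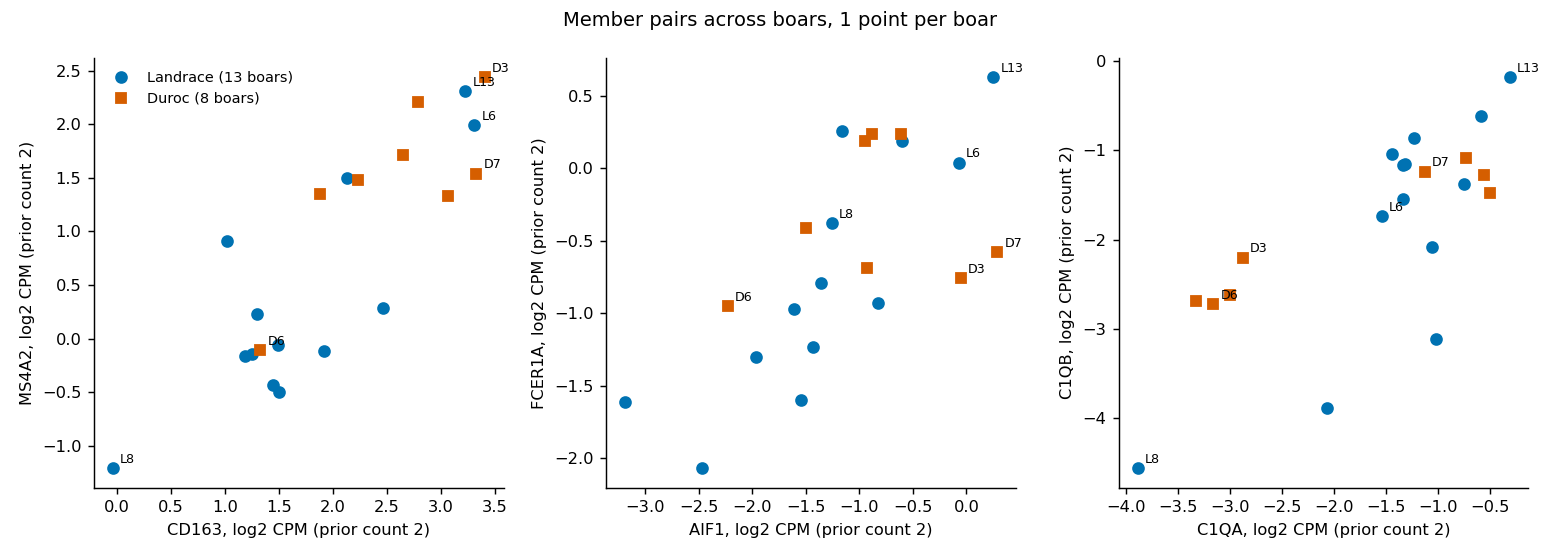
Log2 CPM (prior count 2) of CD163 and MS4A2, AIF1 and FCER1A, and C1QA and C1QB, with 1 point per boar, Landrace as blue circles and Duroc as orange squares. L8 is the lowest boar and L13 among the highest in the left and right panels, and D3 and D7 lie below the Landrace boars of like AIF1 level in the middle panel.

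The genes whose pattern over the 21 boars was most like that of MS4A2 were found by Pearson's r of log2 CPM among the 13125 other genes that reached 1 CPM in 8 or more boars. They were ENSSSCG00000000657 (r = 0.90), which had no symbol, the secreted matrix protein CCDC80, the chemokine CXCL12, the lipoprotein receptor relative LRP1B and the secreted ligand WNT5A (r = 0.88 each). Within the breeds, r of these 5 genes was 0.83 to 0.90 in Landrace and 0.74 to 0.89 in Duroc. For CD163 the most alike gene was MS4A2 itself, followed by ENSSSCG00000014380 (r = 0.85) and ENSSSCG00000034757 (r = 0.82), which had no symbol, LIMD1 (r = 0.82) and TMEM98 (r = 0.81). These are descriptions over boars that share the compositions given above.

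Of the other 22 macrophage markers with a row, 13 were tested in contrast (i), and 2 were lower and 0 higher in the high boars, a smaller share than the 20.7% over all genes, with a median log2 fold change of -0.12 against 0.03 over all genes. STAB1, a scavenger receptor, was at 1.17 to 3.16 CPM in the high and 4.57 to 11.9 CPM in the low boars (log2 fold change -1.81, SE 0.38, adjusted p = 0.0208). C1QC, the remaining chain of C1q, was at 1.27 (L8), 2.65 (L6), 2.93 (L7) and 3.35 CPM (L5) in the high and at 4.75 (L3), 4.94 (L1), 5.64 (L2) and 6.17 CPM (L4) in the low boars (log2 fold change -1.14, SE 0.30, adjusted p = 0.0270). The call of STAB1 was lost without L3 or L6 and that of C1QC without L1, L3, L4 or L6, with adjusted p of 0.0504 to 0.0596 and log2 fold changes of -1.97 to -1.12. CTSS, with the next smallest p, had a log2 fold change of 0.45 (SE 0.17, adjusted p = 0.0735).

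Among macrophage ligands, 1 of 3 tested in contrast (i) was called, where 20.7% of all 12979 genes were, so this count says little about the ligands. IL34, a ligand of CSF1R, was at 0.489 to 1.20 CPM in the high and 1.52 to 2.29 CPM in the low boars (log2 fold change -1.08, SE 0.33, adjusted p = 0.0413), and this call was lost when L1, L3, L4, L5, L6 or L8 was left out (adjusted p up to 0.0881) and without a filter (0.0538). The MERTK ligands PROS1 and GAS6 had log2 fold changes of 0.45 and -0.86 (adjusted p = 0.0502 and 0.0686). CSF1, the other ligand of CSF1R, was at 0.0687 to 0.705 CPM over the 21 boars. Of the MHC class II genes 0 of 3 tested were called, with log2 fold changes of 0.33 for SLA-DMB, -0.44 for SLA-DQB1 and -0.43 for CD74 (adjusted p of 0.496 or more).

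For the mast cell lineage, 0 of 4 other markers tested in contrast (i) were called, with MITF at 0.42 (adjusted p = 0.173), KIT at -0.46 (0.246) and HDC at -0.50 (0.316) on the log2 scale, and 0 of 4 ligand and signalling genes, with KITLG at 0.43 (0.0979), IL33 at 0.21 (0.368) and LYN at -0.06 (0.909). In Duroc 0 genes of any list were called. The smallest p there belonged to LYVE1 (0.73), LYZ (-0.57) and TIMD4 (0.38) of the macrophage markers, SLA-DQB1 (0.30), CD74 (0.28) and SLA-DMB (0.08) of the MHC class II genes, GAS6 (0.32) and PROS1 (0.06) of the macrophage ligands, SRGN (0.47), HDC (0.23) and ENPP3 (0.11) of the mast cell markers, and IL33 (0.58), SYK (0.63) and LYN (0.39) of the mast cell signals, as log2 fold changes with adjusted p of 1.

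Between the breeds, where 2.88% of 13126 genes were called, 3 of 14 tested macrophage markers were higher in Duroc and 0 lower. The scavenger receptor MARCO had a log2 fold change of 2.31 (SE 0.35, adjusted p = 0.000264), at 0.409 to 0.957 CPM in Landrace and 0.975 to 7.78 CPM in Duroc, where D3, D5 and D6 were above 5 CPM and the other 5 boars at or under 1.66 CPM. Lysozyme, LYZ, had a log2 fold change of 0.96 (SE 0.21, adjusted p = 0.0114), and the integrin ITGAM one of 0.61 (SE 0.16, adjusted p = 0.0374). Of 5 other mast cell markers tested 1 was called: KIT, the receptor for stem cell factor that spermatogonia also carry, had a log2 fold change of -1.40 (SE 0.23, adjusted p = 0.000678) and was lower in each of the 8 Duroc boars than in any Landrace boar. HDC (0.48) and SRGN (0.40) had log2 fold changes in the other direction with adjusted p of 0.445 and 0.632.

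Breed calls of single genes depended on which boars were compared. In the boars labelled high alone and in those labelled low alone, MARCO had log2 fold changes of 2.48 and 2.09 (adjusted p = 0.206 and 0.0804) KIT of -0.98 and -1.34 (0.1 and 0.0648) and LYZ of 0.51 and 1.51 (0.519 and 0.0401), and the call of ITGAM was lost without any 1 of D1, D4, D6, D9, L5, L7, L9, L10, L12 and L15. Of MHC class II genes 0 of 3 were called between the breeds, with SLA-DMB at 0.62 (adjusted p = 0.111), SLA-DQB1 at 0.62 (0.514) and CD74 at 0.37 (0.923). Of macrophage ligands 0 of 3 were, with IL34 at -1.26 (0.0587), GAS6 at 0.27 (0.850) and PROS1 at -0.11 (0.935), and of mast cell signals 0 of 4, with KITLG at 0.15 (0.955), IL33 at -0.08 and SYK at 0.07 (0.998 each).

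Markers of other cells were read in the same fits. In contrast (i), besides the peritubular and spermatid genes, the T cell genes CD4 and CD247 (2 of 3 tested), the endothelial gene TIE1 (1 of 6) and the haemoglobin gene HBB (1 of 2) were lower in the high boars, and the meiotic gene DMC1 (1 of 5 spermatocyte genes) was higher, where 20.7% of all genes were called and most were lower. These calls were unstable: over 16 alternatives CD247 was called in 7, HBB in 8 (log2 fold change -3.36 to -1.25), DMC1 in 10, CD4 in 11 and TIE1 in 13. None of the tested markers of Leydig (6), Sertoli (7), spermatogonial (4), B and plasma (4) and dendritic cells (3) and of all leukocytes (2) were called, and no neutrophil, basophil or eosinophil marker passed the filter there. Between the breeds GATA4 (1 of 7 Sertoli genes) was higher in Duroc and no gene of the other lists was called. The summed level of 5 neutrophil markers was at most 0.927 CPM and that of 3 basophil and eosinophil markers 0.111 to 2.38 CPM, and the T cell receptor chains CD3D and CD3E were at most 0.704 and 0.589 CPM.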

How the data were processed

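Libraries of 21 boars were analysed, 1 per boar, grouped by the labels. According to the study's methods, reads (TruSeq stranded mRNA kit, 100 base single reads, 2 lanes) were trimmed with Trimmomatic 0.36, aligned to Sscrofa 11.1 with STAR 2.5.2a and counted with HTSeq in reverse-stranded mode on Ensembl release 11.1.90. The authors deposited raw counts per gene, 25880 in each file. The 5 HTSeq rows that name no gene, 29.4 to 39.0% of reads, were left out.

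Counts were fitted in R 4.3.3 with edgeR 4.0.16 (quasi-likelihood test, TMM, 1 CPM in at least 4 libraries or 8 for the breeds, Benjamini-Hochberg over all genes tested, threshold 0.05). Genes under the filter were also compared by two-sided exact permutation tests of mean log2 CPM (prior count 2). SE came from the log2 fold change and its F statistic. The study's likelihood ratio test, DESeq2 1.42.0, RLE scaling, other filters, a robust fit and left-out boars were alternatives. The fit was tested on simulated data. Pearson's r of log counts between boars of a group was 0.958 to 0.981 over 34 pairs and chi-square per degree of freedom 45.9 or more, so all 21 were kept as separate samples. Symbols (14857 matched) came from an identifier table and coordinates from RefSeq by symbol.

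Members and lists were chosen with earlier results of these data known. Named are all members, of the macrophage, mast cell, MHC class II and ligand lists the 3 smallest p per comparison, of any list what was called, and the 5 genes most alike to CD163 and MS4A2. The same was planned for CPA3, which had no row. Intervals and floors cover counting error only.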

Additional observations from a re-analysis of the deposited data

Results flagged for a closer look

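Each gene was checked in the groups of 4 or 5 boars and in all 8 Duroc boars for a boar far from the others by Dixon's test, and 6 of 45 combinations of gene and group had such a boar, where 2.25 would be flagged by chance. In contrast (i), CD163 was 9.87 CPM in L6 and 0.940 to 2.35 CPM in the other high boars, and 5.49 CPM in L3 and 2.25 to 2.78 CPM in the other low boars. C1QA was 0.634 CPM in L3 and 0.365 to 0.396 CPM in the other low boars. In the boars with a low change over storage, CSF1R was 0.235 CPM in L2 and 0.0562 to 0.0794 CPM in the others, and MRC1 was 58.6 CPM in L12 and 88.0 to 93.6 CPM in the others. CD68 was 0.891 CPM in D2 and 1.49 to 1.64 CPM in the other Duroc boars labelled high. L3 and L6 are also the boars without which nearly all calls of contrast (i) under the filter were lost. Without a filter, 731 genes stayed called without L3 and 1351 without L6. No cause of these values was tested.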

How the results depend on the processing

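The 0 members called in Duroc and between the breeds stayed at 0 under all 15 and 29 alternatives. In contrast (i) the number called was 1 with no filter on low counts (CSF1R) and 1 without L2 and L7 (MRC1), and 0 to 0 with single boars left out under the filter. With no filter and single boars left out it was 0 or 1 (CSF1R without L4, L6 or L7, MRC1 without L2). All genes called there numbered 2682, 3427 by the likelihood ratio test, 3922 by DESeq2 and 1 to 3764 with a boar left out; between the breeds 378, 534 and 562, and 32 and 90 in boars labelled high and low alone. In the fit with no filter, boars left out in turn (chosen after seeing the data) gave CSF1R log2 fold changes of -3.32 to -2.32. Between the breeds MARCO gave a value in 21 of the 29 alternatives. MS4A2 fell under the filter in 6 alternatives of contrast (i) and gave no value there. Its log2 fold change in contrast (iii) was 1.42 to 2.16. Pairs of members that passed by r were 6 over 21 boars, 2 in Landrace and 0 in Duroc without the 2 boars farthest from the median, and 7 and 0 without L13 (chosen after seeing the data). Over the values of single genes, 642 alternatives kept the side of the threshold, 97 lost the call, 2 gained it and 0 reversed a called value. In 20 of the 642 the sign of an uncalled value changed (AIF1, C1QA, CD163, CD68, CSF1R or MRC1). No paired analysis was possible because the numbers in the labels only name boars. Genes with few counts limit the precision: CSF1R had at most 33 counts, and with 4 boars a group an exact permutation test cannot go below 0.0286.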
